A study of Mus musculus with 17 samples.

Results

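The genes of glycolysis and of the response to low oxygen were followed through endothelial cells of mouse bone marrow, in animals with and without endothelial Endoglin. The set held 33 genes, chosen by name from the 49585 gene identifiers of each count table: 3 transporters of glucose and lactate, 15 glycolytic enzymes, 5 regulators of glycolytic flux and pyruvate fate, 4 regulators of hypoxia-inducible factor (HIF) and 6 HIF targets outside glycolysis. All 33 were found by symbol.

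Knockout (KO) animals were of the line Cdh5:CreERT2-Eng f/f, in which tamoxifen activates a Cre recombinase made from the endothelial Cdh5 promoter and exons 5 and 6 of Eng lie between loxP sites. Eng encodes Endoglin, a co-receptor of the TGF-beta family. Wild-type (WT) and KO mice, 8 weeks old at induction, are all labelled as injected with tamoxifen, and the labels do not say whether WT animals carried the Cre. Marrow was collected 2 or 4 weeks later, and cells were sorted as CD45-, Ter119-, CD31+ and Sca1+ per the labels' protocol, while the study's design text gives the gate without Sca1. There were 4 WT and 4 KO libraries at 2 weeks, each group with 2 females and 2 males, and 5 WT (2 females, 3 males) and 4 KO libraries (1 female, 3 males) at 4 weeks. Libraries are named below by sex and number as in their titles. The p-values measure the spread between these samples.

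Glycolysis splits glucose to pyruvate and yields ATP without oxygen, and endothelial cells draw much of their ATP from it. The transcription factors HIF-1alpha (Hif1a) and HIF-2alpha (Epas1) pair with Arnt and bind DNA at a short core motif in genes that they activate. In the presence of oxygen the prolyl hydroxylases, Egln1 and Egln3 among them, mark HIF-alpha protein for destruction, so HIF activity is set largely at the level of protein stability, which transcript counts do not measure. Many glycolytic genes, and genes of mitophagy, collagen and glycogen synthesis, are established HIF targets.

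The libraries held 20477400 to 40882715 counts. As a check of the labels, Eng ran from 704.7 to 1307 CPM (counts relative to the library total) in 2-week WT and from 225.0 to 347 in 2-week KO. At 4 weeks it ran from 2400 to 2735 CPM in WT against 274 to 1647 in KO, with KO m2 the highest of the KO. Of 10 endothelial markers, 9 in 2-week and 10 in 4-week libraries were above 3 counts in every library. The time points differed as libraries: 10886 to 13583 genes were detected at 2 weeks and 15996 to 21235 at 4 weeks, and mitochondrially encoded genes took 22.2% to 29.5% and 4.66% to 8.99% of counts. Of the 33 genes, 4 to 10 per library had 0 counts at 2 weeks and 0 to 5 at 4 weeks. The labels record no batch, and time and any batch cannot be told apart. In bulk samples, fewer cells of a type and less RNA per cell cannot be told apart either.

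The promoters of 6 members on which the results below turn are shown first, because HIF binds DNA at a short core motif. The motif was searched as the letters ACGTG alone, and binding of HIF was not measured. Each is 300 bases from 250 before to 50 after a RefSeq gene start (GRCm38.p6), written 5′ to 3′ on the gene's strand. Capitals mark the motif ACGTG, or CACGT where it lies on the opposite strand; the palindrome CACGTG holds both, and they overlap.
Slc2a1, chr4:119108495-119108794, plus strand: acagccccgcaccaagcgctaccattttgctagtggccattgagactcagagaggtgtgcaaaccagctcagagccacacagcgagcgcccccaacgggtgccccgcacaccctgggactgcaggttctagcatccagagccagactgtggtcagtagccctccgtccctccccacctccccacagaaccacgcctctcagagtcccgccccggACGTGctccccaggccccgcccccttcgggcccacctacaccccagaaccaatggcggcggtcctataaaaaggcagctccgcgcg
Pgk1, chrX:106186850-106187149, plus strand: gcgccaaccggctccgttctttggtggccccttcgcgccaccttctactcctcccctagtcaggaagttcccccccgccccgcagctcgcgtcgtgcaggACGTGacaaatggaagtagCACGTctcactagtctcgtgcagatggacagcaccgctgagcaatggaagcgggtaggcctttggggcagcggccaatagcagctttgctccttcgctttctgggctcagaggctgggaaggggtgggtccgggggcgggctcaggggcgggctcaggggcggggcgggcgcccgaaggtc
Egln3, chr12:54203825-54204124, minus strand: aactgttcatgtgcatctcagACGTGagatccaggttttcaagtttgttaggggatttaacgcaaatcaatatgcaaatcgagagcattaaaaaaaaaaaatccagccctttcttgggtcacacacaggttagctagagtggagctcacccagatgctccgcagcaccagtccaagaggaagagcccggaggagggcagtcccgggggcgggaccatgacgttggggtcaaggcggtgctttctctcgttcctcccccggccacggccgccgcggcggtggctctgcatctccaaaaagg
Bnip3, chr7:138909457-138909756, minus strand: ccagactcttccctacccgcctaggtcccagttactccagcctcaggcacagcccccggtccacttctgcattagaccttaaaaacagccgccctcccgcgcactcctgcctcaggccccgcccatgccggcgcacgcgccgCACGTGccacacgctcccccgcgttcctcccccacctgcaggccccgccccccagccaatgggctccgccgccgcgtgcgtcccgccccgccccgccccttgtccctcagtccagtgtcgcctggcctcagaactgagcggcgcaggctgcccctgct
Ankrd37, chr8:45999801-46000100, minus strand: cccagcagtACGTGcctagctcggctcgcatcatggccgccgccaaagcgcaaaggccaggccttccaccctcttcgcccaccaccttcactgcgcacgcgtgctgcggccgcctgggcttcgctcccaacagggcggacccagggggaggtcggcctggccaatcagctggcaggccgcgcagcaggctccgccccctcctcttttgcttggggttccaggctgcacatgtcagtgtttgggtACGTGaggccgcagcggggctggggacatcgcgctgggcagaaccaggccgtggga
Gbe1, chr16:70313699-70313998, plus strand: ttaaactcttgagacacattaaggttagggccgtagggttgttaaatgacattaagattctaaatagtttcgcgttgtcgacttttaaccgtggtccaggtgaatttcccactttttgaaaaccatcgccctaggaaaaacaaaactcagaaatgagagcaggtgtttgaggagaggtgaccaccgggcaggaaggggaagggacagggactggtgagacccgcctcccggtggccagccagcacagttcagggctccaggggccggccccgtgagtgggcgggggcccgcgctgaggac
Bnip3 carried the motif as the palindrome, from base -108 relative to the start. Pgk1 and Ankrd37 each carried it at 2 separate places, Slc2a1 and Egln3 at 1, and Gbe1 at none. The RefSeq table had a window for 29 of the 33 genes, and 19 of the 29 (65.5%) held the motif in at least 1 window; the table has no window for Slc2a3, Epas1, Bnip3l and Ndrg1. By class, the motif was found in 2 of 2 transporters, 9 of 15 enzymes, 2 of 5 regulators of flux, 3 of 3 HIF regulators and 3 of 4 other targets. Among all genes with a window, 21.8% (5886 of 27025) held it, and among those with a mean of at least 10 CPM at 4 weeks, 31.0% (2067 of 6659). A gene may have several windows, so genes with more windows had more chances to match. A match describes these letters only, and the absence of one in Gbe1 says only that they are not in this window.

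Levels of different genes were compared per length, as TPM, the counts divided by the merged exon length of the gene and scaled to the same total in every library. A few glycolytic genes dominated. In WT at 4 weeks Aldoa, which cleaves fructose 1,6-bisphosphate, was at 616 ± 81.3 TPM (SD, n = 5), Ldha, which reduces pyruvate to lactate, at 590.0 ± 70.8 TPM and Gapdh at 421 ± 47.7 TPM. Epas1 stood among them at 628 ± 266 TPM, with a wide spread. Aldoa and Epas1 did not differ beyond their spread, nor did Aldoa and Ldha, while every WT library at 4 weeks had more Ldha than any had Gapdh. Ndrg1, a stress-induced cytosolic protein and the highest of the other targets, followed at 224 ± 35.4 TPM.

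The next genes formed a graded series with overlapping spreads: Eno1 at 191 ± 37.0 TPM, Tpi1 at 155 ± 11.5, Pkm at 153 ± 41.7, Bnip3l at 141 ± 22.6, Gpi1 at 119 ± 14.2 and Bnip3 at 116 ± 25.7. Pgk1 was at 66.5 ± 18.7 TPM and Pgam1, phosphoglycerate mutase, at 59.1 ± 6.52. The glucose transporter Slc2a1 (GLUT1) was at 52.1 ± 4.97 TPM, Pfkl of phosphofructokinase at 48.3 ± 9.84 TPM and hexokinase Hk1, which traps glucose in the cell, at 23.9 ± 9.11 TPM. Pfkfb3, which makes the activator of phosphofructokinase, was at 11.5 ± 6.49 TPM. By the mean coding transcript length, added after seeing the data, Hk1 (94.2 TPM), Pfkl (86.1) and Slc2a1 (83.8) stood above Pgk1 (47.3) and Pgam1 (38.1), so the order of these 5 genes is not firm. At the bottom, Slc16a3, Egln3, Slc2a3, Pfkfb4, Aldoc, Eno2 and Hk2 all had means under 4 TPM in WT at 4 weeks. At 2 weeks Ldha (448 ± 53.8 TPM in WT), Aldoa (374 ± 36.1), Epas1 (373 ± 162) and Gapdh (312 ± 33.2) again led. The order depends on the length used: by the longest coding transcript, chosen as an alternative after seeing the data, Gapdh led in WT at both times, at 732 TPM at 2 weeks and 905.5 TPM at 4 weeks. By the mean coding transcript length Ldha (1022 TPM), Gapdh (902), Ndrg1 (719) and Aldoa (706) led in WT at 2 weeks and the same 4 genes at 4 weeks, and Epas1 was at 255 and 366 TPM.

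**Figure D1:**
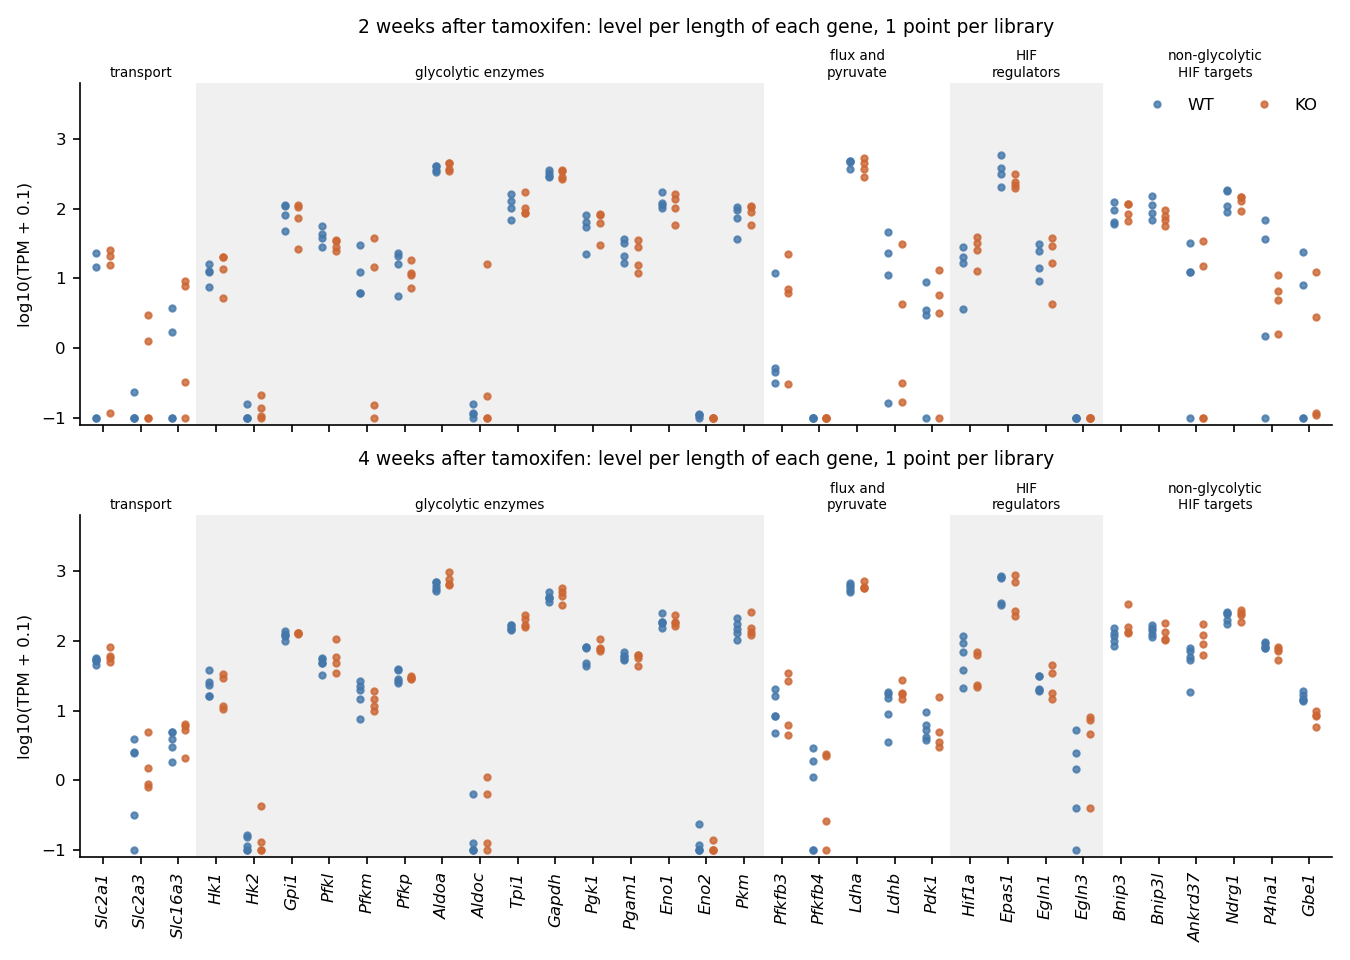
Level of each of the 33 genes at 2 weeks (top) and 4 weeks (bottom) as log10(TPM + 0.1), 1 point per library, WT in blue and KO in orange, with genes grouped by role. Points on the lowest line are libraries at 0 TPM; these are frequent at 2 weeks, and Aldoa, Ldha, Gapdh and Epas1 form the top at both times.

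**Figure D2:**
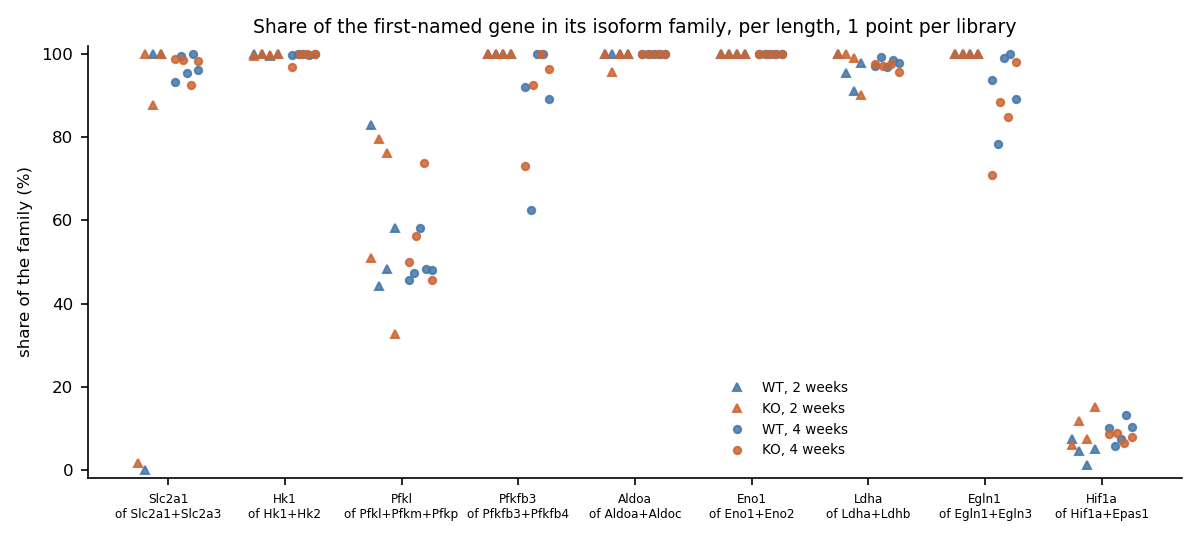
Share of the first-named gene in the length-scaled total of its isoform family, in percent, 1 point per library; triangles are 2 weeks, circles 4 weeks, blue WT and orange KO, and a library without counts for a family has no point. Hk1, Aldoa and Eno1 are near 100% in nearly every library, while the phosphofructokinase family is mixed.

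Most isoform families were served by 1 gene. Over the 17 libraries Hk1 made up 99.7% ± 0.733 (SD) of the hexokinase total of Hk1 and Hk2, Aldoa 99.7% ± 1.07 of Aldoa and Aldoc, Eno1 99.99% ± 0.0183 of Eno1 and Eno2, and Ldha 97.1% ± 2.82 of Ldha and Ldhb. Hk2, the inducible hexokinase, and Eno2, the neuronal enolase, were near 0 in both genotypes. Slc2a1 made up 96.9% ± 2.72 of Slc2a1 and Slc2a3 at 4 weeks (n = 9). At 2 weeks its share was 0% in WT f4, 1.68% in KO f1 and 87.8% in KO m2. It was 100% in WT m2 and m3 and KO f4 and m3, and WT f1 had no counts of either gene. Phosphofructokinase was the exception, with 55.7% ± 14.2 Pfkl, 27.2% ± 8.93 Pfkp and 17.1% ± 12.3 Pfkm. That order was not firm: by the longest coding transcript the shares were 48.3% Pfkl and 41.8% Pfkp, and by the mean coding transcript length 45.3% Pfkl and 46.6% Pfkp, which puts Pfkp first. The order of Pfkp and Pfkm also varied by group, with means of 12.1 and 13.1 TPM in 2-week KO and 31.2 and 18.1 TPM in 4-week WT. Epas1 held 91.9% ± 3.37 of the length-scaled total of Epas1 and Hif1a. Egln3 and Pfkfb4 had 0 counts in all 8 libraries at 2 weeks. At 4 weeks Egln1 held 89.2% ± 9.89 of the pair Egln1 and Egln3, and Pfkfb3 89.5% ± 13.2 of Pfkfb3 and Pfkfb4.

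The first comparison asked whether loss of Endoglin was accompanied by a difference in these genes 4 weeks after tamoxifen. None of the 30 members tested passed an adjusted p of 0.05, as was true of all 15209 genes tested (0% called), and the smallest adjusted p of a member was 0.9997 (edgeR's quasi-likelihood test, Benjamini-Hochberg over all genes). Eng itself was thus not called, although every KO library was below every WT library in it. The lack of calls therefore does not show that levels were equal. At an unadjusted p under 0.05 there were 3 members, Gbe1, Ankrd37 and Bnip3, against 2.77% of all genes (422). All 3 are HIF targets outside glycolysis, and they did not share a direction. Hk2, Aldoc and Eno2 had too few counts to be tested. DESeq2 with the same terms called 17 of the 15209 genes, among them Gbe1 alone of the members.

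Gbe1, the branching enzyme of glycogen synthesis (ENSMUSG00000022707, chromosome 16, 70313949 to 70569716, plus strand of GRCm38), was lower in KO. In WT it was at 33.4 (f), 32.2 (f3), 40.7 (m1), 30.8 (m2) and 30.7 (m3) CPM. In KO it was at 13.8 (f2), 21.3 (m1), 18.5 (m2) and 19.2 (m3) CPM. All 4 KO values lay under the lowest WT value, which held for 0.526% of all genes tested. The WT mean was 33.6 ± 4.14 CPM (SD, n = 5) and the KO mean 18.2 ± 3.19 CPM (SD, n = 4), a log2 fold change of -0.91 (SE 0.20, unadjusted p = 0.00159). DESeq2 gave an adjusted p of 0.0400; over 10 alternatives of scaling, filter, terms or tool the adjusted p ran from 0.0400 to 1, and leaving out any 1 library left a log2 fold change of -0.99 to -0.78. No other member separated the groups in this direction, and none had every KO library above every WT library, which held for 0.664% of all genes.

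Ankrd37, a small ankyrin repeat protein induced by HIF (chromosome 8, 45996902 to 46005707, minus strand), was higher in mean in KO. It was at 33.5 (f), 46.4 (f3), 11.3 (m1), 31.6 (m2) and 49.7 (m3) CPM in WT. It was at 61.6 (f2), 75.4 (m1), 109 (m2) and 41.5 (m3) CPM in KO. KO m3 lay within the WT range, and the 3 other KO libraries were above it. The log2 fold change was 1.09 (SE 0.45, unadjusted p = 0.0382). Its exons overlap those of Ufsp2 and Lrp2bp on the other strand, and the strand setting of the authors' counting is not given in the sources used here, so reads there cannot be assigned with certainty.

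Bnip3, which links mitochondria to autophagy (chromosome 7, 138890836 to 138909519, minus strand), was at 72.0 (f), 113 (f3), 89.4 (m1), 134 (m2) and 121 (m3) CPM in WT. In KO it was at 158 (f2), 124 (m1), 309.8 (m2) and 124 (m3) CPM. KO m2 stood far above all others, KO f2 was also above the WT range, and KO m1 and m3 lay within it. The log2 fold change was 0.72 (SE 0.31, unadjusted p = 0.0434) and 0.38 without KO m2. Exons of Bnip3 overlap Gm45507 on the other strand. Of the remaining targets, the Bnip3 relative Bnip3l had a log2 fold change of -0.064 (SE 0.15), Ndrg1 of 0.13 (SE 0.12), and P4ha1, a subunit of the collagen prolyl hydroxylase, of -0.20 (SE 0.17). The 6 targets thus split 3 to 3, with a median of 0.031 beside 0.012 over all genes tested.

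**Figure D3:**
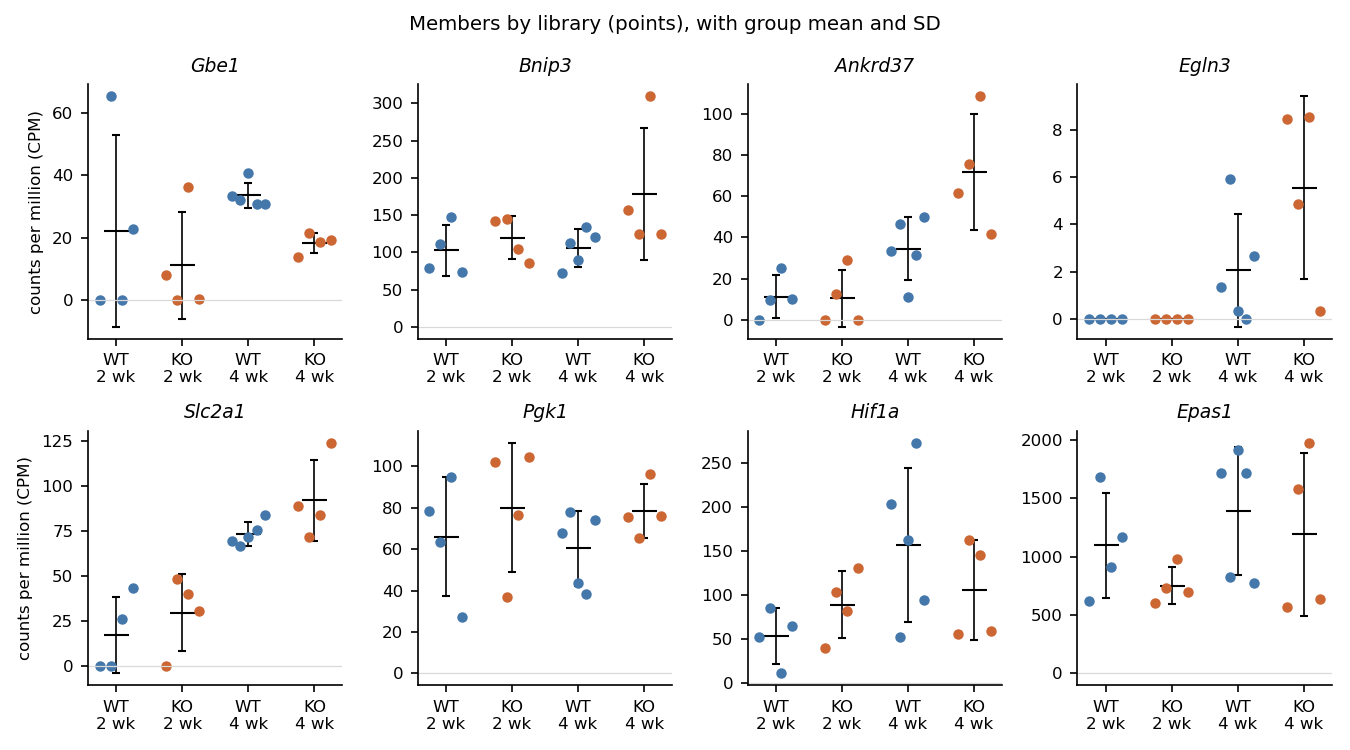
CPM of 8 members in each library (points, WT blue, KO orange) by genotype and weeks after tamoxifen, with the group mean (dash) and SD (bars); each panel has its own linear axis. Gbe1 at 4 weeks is the panel in which the KO points, at 13.8 to 21.3 CPM, all lie below the WT points, at 30.7 to 40.7 CPM.

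The glycolytic enzymes leaned the other way from Gbe1 by small amounts. Of 12 enzymes tested at 4 weeks, 10 had a log2 fold change above 0 (83.3%, beside 51.3% of all genes), with a median of 0.17 and a range from -0.29 to 0.45. None had an unadjusted p under 0.05. The nearest were Tpi1, triose phosphate isomerase, at 0.37 (SE 0.16, unadjusted p = 0.0512), and Aldoa at 0.33 (SE 0.15, unadjusted p = 0.0541). Pgk1, phosphoglycerate kinase, the first ATP-yielding step, had the largest log2 fold change of the class at 0.45 (SE 0.25, unadjusted p = 0.104). Its WT libraries were at 67.8 (f), 77.8 (f3), 43.5 (m1), 38.5 (m2) and 74.2 (m3) CPM. In KO it measured 75.6 (f2), 65.5 (m1), 96.4 (m2) and 76.1 (m3) CPM. WT m1 and m2 were the lowest and KO m2 the highest of the 9 libraries, and the groups overlapped, with WT f3 above the other 3 KO libraries. The other enzymes with a positive log2 fold change were Pfkl (0.37 (SE 0.26)), Gpi1 (0.21 (SE 0.13)), Gapdh (0.19 (SE 0.20)), Pkm (0.15 (SE 0.21)), Eno1 (0.073 (SE 0.19)), Pfkp (0.022 (SE 0.14)) and Pgam1 (0.012 (SE 0.18)). Hk1 (-0.16 (SE 0.39)) and Pfkm (-0.29 (SE 0.38)) were negative.

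Summed over the 15 enzymes, WT libraries held 2713 to 3499 CPM and KO libraries 3035 to 4157 CPM at 4 weeks, and the groups overlapped. KO m2 was the highest of the 9 libraries at 4157 CPM and KO m3 next at 3836 CPM. Per library, the median log2 ratio of the 12 enzymes with at least 10 CPM to the WT mean ran from -0.24 to 0.17 in WT and from 0.041 to 0.37 in KO. KO m2 was also the highest library for 14 of the 25 members with a mean of at least 10 CPM, Pfkl, Aldoa, Tpi1, Pgk1, Pkm, Ldha and Bnip3 among them. The share of all genes with KO m2 highest was not computed, so this count is not read as a trait of the members. The same library had the most residual Eng of the KO (1647 CPM) and the highest sum of erythroid markers. Leaving out 1 library at a time moved the median of the enzymes between 0.11 and 0.23.

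Markers of other cells also differed in range between the genotypes at 4 weeks. The summed level of 9 erythroid genes was 165 to 1268 CPM in WT and 611 to 2889 CPM in KO, with 6 of the 9 above 3 counts in every library of both groups and none at 0 throughout. The 10 neutrophil genes summed to 20.0 to 100.2 CPM in WT and 37.3 to 75.5 in KO, and 5 stromal genes to 1140 to 2942 CPM and 848 to 2687 CPM. Their part in the differences of glycolytic and HIF genes was not tested.

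The transporters and the regulators of flux had log2 fold changes above 0 in all 8 members tested at 4 weeks (beside 51.3% of all genes), without an unadjusted p under 0.05, and 4 of the 8 had a mean of at least 10 CPM. Slc2a1 was at 69.3 (f), 66.6 (f3), 71.5 (m1), 75.5 (m2) and 84.0 (m3) CPM in WT. It was at 88.6 (f2), 71.5 (m1), 83.9 (m2) and 124 (m3) CPM in KO. KO m3 was clearly above the rest, and the other KO libraries overlapped the WT or lay just above it. The log2 fold change was 0.33 (SE 0.19, unadjusted p = 0.113) and 0.15 without KO m3. The lactate exporter Slc16a3 (0.55 (SE 0.46)) and the second glucose transporter Slc2a3 (0.052 (SE 1.43)) were too low for a firm estimate.

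Pfkfb3 was at 57.8 (f), 15.2 (f3), 48.9 (m1), 24.3 (m2) and 25.8 (m3) CPM in WT. It was at 20.6 (f2), 80.6 (m1), 103 (m2) and 14.4 (m3) CPM in KO. The KO libraries took both ends of the range, with m1 and m2 above and m3 below every WT library. The log2 fold change was 0.52 (SE 0.66, unadjusted p = 0.455) and 0.12 without KO m2. Ldha (0.12 (SE 0.12)), Ldhb, the form that favours lactate oxidation (0.66 (SE 0.47)), Pdk1, a kinase that inhibits pyruvate dehydrogenase (0.22 (SE 0.53)), and Pfkfb4 (0.85 (SE 1.87)) completed the class. Its median was 0.52, which is the value of Pfkfb3, and 0.22 over the 3 members with a mean of at least 10 CPM.

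The HIF regulators did not share a direction. Hif1a was at 203 (f), 53.0 (f3), 163 (m1), 274 (m2) and 94.3 (m3) CPM in WT. It was at 56.5 (f2), 163 (m1), 145 (m2) and 58.8 (m3) CPM in KO. Epas1 was at 1721 (f), 824 (f3), 1916 (m1), 1719 (m2) and 772 (m3) CPM in WT and at 571 (f2), 1580.5 (m1), 1979 (m2) and 639 (m3) CPM in KO. WT f3 and m3 and KO f2 and m3 were the lowest libraries for both genes, so low values occurred in both genotypes. Arnt, the partner of both factors, was at 90.7 (f), 32.3 (f3), 89.5 (m1), 79.6 (m2) and 36.9 (m3) CPM in WT and 27.7 (f2), 74.2 (m1), 51.2 (m2) and 22.0 (m3) CPM in KO. The 5 stromal markers summed to 2723 (f), 1140 (f3), 2302 (m1), 2942 (m2) and 1199 (m3) CPM in WT and to 848 (f2), 2074 (m1), 2687 (m2) and 889 (m3) CPM in KO. Kdr, the main VEGF receptor of endothelial cells, was at 2113 (f), 499.7 (f3), 1939.8 (m1), 1789 (m2) and 626 (m3) CPM in WT and 416 (f2), 2179 (m1), 1646 (m2) and 517 (m3) CPM in KO, again lowest in WT f3 and m3 and KO f2 and m3. The sum of the 10 endothelial markers was 8255 to 10704 CPM over the 9 libraries. The part of these differences between libraries in the Hif1a and Epas1 values was not tested. The log2 fold changes between genotypes were -0.70 (SE 0.47, unadjusted p = 0.176) for Hif1a and -0.36 (SE 0.42, unadjusted p = 0.411) for Epas1, and for both the difference of the group means was smaller than either SD. On leaving out 1 library that of Hif1a ran from -0.92 (without WT m3) to -0.38 (without WT f). That of Epas1 ran from -0.63 (without WT m3) to -0.065 (without KO f2). Exons of Hif1a overlap Gm15283 and Gm49321.

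Egln1, the main oxygen-sensing hydroxylase, was at 27.7 (f), 29.0 (f3), 44.8 (m1), 44.3 (m2) and 29.4 (m3) CPM in WT. It was at 28.0 (f2), 50.3 (m1), 64.5 (m2) and 22.2 (m3) CPM in KO. The log2 fold change was 0.15 (SE 0.30, unadjusted p = 0.625), and -0.060 without KO m2. Egln3, the hydroxylase that HIF itself induces (chromosome 12, 54178981 to 54203860, minus strand), was at 1.36 (f), 5.93 (f3), 0.313 (m1), 0 (m2) and 2.65 (m3) CPM in WT and at 8.50 (f2), 4.89 (m1), 8.55 (m2) and 0.341 (m3) CPM in KO. In KO 3 of 4 libraries were near 5 CPM or above, while KO m3 and WT m1 and m2 were at or close to 0. The log2 fold change was 1.89 (SE 1.40, unadjusted p = 0.209), on counts too low for a narrow error.

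**Figure D4:**
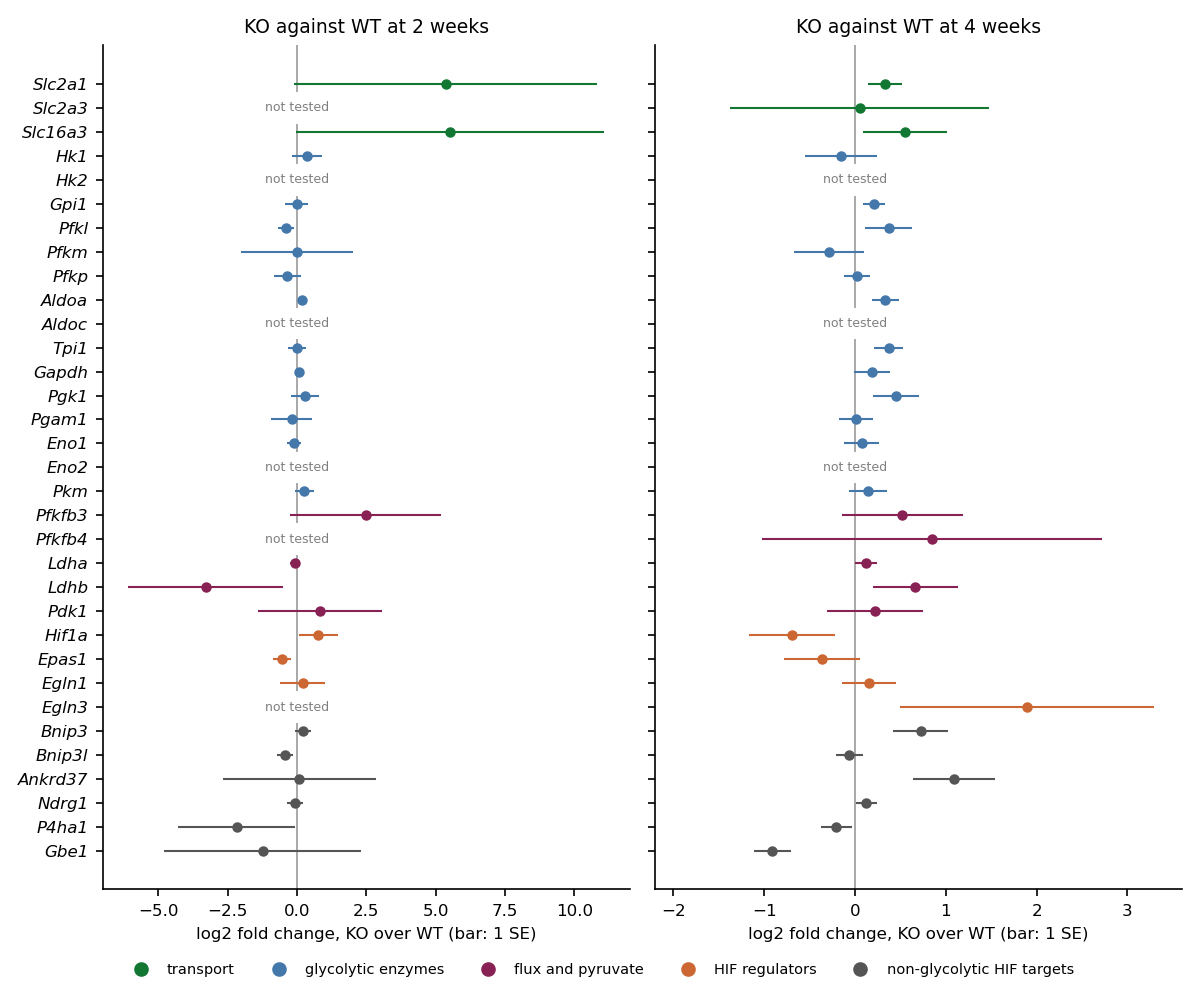
Fitted log2 fold change of KO over WT for each member at 2 weeks (left) and 4 weeks (right), coloured by role; bars are 1 SE, the vertical line is 0 and the horizontal axes differ. Of 27 members tested at both times, 23 have the wider error at 2 weeks; at 4 weeks 10 of 12 enzymes sit to the right of 0, Hk1 and Pfkm to the left, and Gbe1 lies furthest to the left.

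At 2 weeks the SE was wider than at 4 weeks for 23 of the 27 members tested at both times (median SE 0.51 against 0.21), and narrower for Aldoa, Gapdh, Epas1 and Bnip3. Of 27 members tested, none passed the adjusted threshold, as for all 10477 genes tested (0% called), and none had an unadjusted p under 0.05, beside 2.63% of all genes (276). Eng, lower in every KO than in every WT library, was not called here either. DESeq2 called 149 of all genes and none of the members. A positive log2 fold change was found in 13 of the 27, or 48.1%, beside 46.9% of all genes. No member had all KO libraries above all WT libraries (1.58% of all genes) or all below (1.78%). The 12 enzymes tested had a median of -0.0081, with 5 above 0, and the 6 other targets had a median of -0.25, with 2 above 0.

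The best-measured enzymes were close between genotypes at 2 weeks. Aldoa had a log2 fold change of 0.18 (SE 0.11, unadjusted p = 0.144), Gapdh of 0.073 (SE 0.11) and Ldha of -0.080 (SE 0.18). Pfkl had the largest log2 fold change of the enzymes with at least 10 CPM. It was at 206 (f1), 96.1 (f4), 148 (m2) and 136 (m3) CPM in WT and 124 (f1), 101 (f4), 130.4 (m2) and 93.2 (m3) CPM in KO, a log2 fold change of -0.39 (SE 0.28, unadjusted p = 0.203). The groups overlapped, with WT f1 above all others. On leaving out 1 library the log2 fold change of Pfkl ran from -0.57 (without WT f4) to -0.11 (without WT f1). The summed enzymes ran from 2321 to 2886 CPM in WT libraries, and KO libraries from 2360 to 3156 CPM.

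Other members at 2 weeks swung between 0 and a sizable count from library to library. Slc2a1 was at 0 (f1), 0 (f4), 26.1 (m2) and 43.4 (m3) CPM in WT and 0.0374 (f1), 48.6 (f4), 40.1 (m2) and 30.6 (m3) CPM in KO. Ldhb was at 0.0526 (f1), 18.4 (f4), 37.6 (m2) and 9.52 (m3) CPM in WT and 0.187 (f1), 0.0589 (f4), 3.67 (m2) and 28.0 (m3) CPM in KO. P4ha1 was at 157 (f1), 2.98 (f4), 0 (m2) and 81.5 (m3) CPM in WT and 3.33 (f1), 14.4 (f4), 10.7 (m2) and 25.9 (m3) CPM in KO. The fitted log2 fold changes, 5.37 (SE 5.46) for Slc2a1, -3.30 (SE 2.79) for Ldhb and -2.18 (SE 2.12) for P4ha1, moved with single libraries. That of Slc2a1 ran from 0.95 (without KO f4) to 9.95 (without KO m2) on leaving out 1 library. That of Ldhb turned to 0.086 without WT f4. That of P4ha1 was -0.23 without WT f1, its highest library, -2.80 without WT m2, which was at 0, and turned in voom with quality weights (0.65).

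Among the HIF regulators at 2 weeks, Hif1a was at 52.7 (f1), 85.9 (f4), 11.0 (m2) and 65.2 (m3) CPM in WT and 40.3 (f1), 104 (f4), 82.0 (m2) and 131 (m3) CPM in KO, a log2 fold change of 0.77 (SE 0.71, unadjusted p = 0.316). On leaving out 1 library the log2 fold change of Hif1a ran from 0.30 (without WT m2) to 1.14 (without KO f1). Epas1 was at 624 (f1), 1685 (f4), 916 (m2) and 1170.2 (m3) CPM in WT and 604 (f1), 731 (f4), 978 (m2) and 702 (m3) CPM in KO, a log2 fold change of -0.55 (SE 0.31, unadjusted p = 0.125). That of Epas1 ran from -0.73 (without WT f1) to -0.16 (without WT f4). Egln1 was at 48.2 (f1), 25.3 (f4), 16.7 (m2) and 60.0 (m3) CPM in WT and 75.0 (f1), 8.16 (f4), 32.7 (m2) and 60.6 (m3) CPM in KO, a log2 fold change of 0.20 (SE 0.81, unadjusted p = 0.809). The direction of Egln1 was not firm, from -0.56 (without KO f1) to 0.66 (without WT m3). All 3 overlapped between genotypes. The 3 targets that stood out at 4 weeks gave -1.24 (SE 3.56) for Gbe1, 0.086 (SE 2.75) for Ankrd37 and 0.21 (SE 0.29) for Bnip3. Neutrophil markers summed to 22.6 to 110.0 CPM in WT and 107 to 4118 CPM in KO at 2 weeks, highest in KO m2 and m3, and erythroid markers to 61.4 to 179.6 and 278 to 1241 CPM; their part in these values was not tested.

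Whether the KO effect differed between the times was tested directly in a fit of all 17 libraries. All groups share 1 estimate of the spread in that fit. For KO against WT at 2 weeks it gave 2377 of 15703 genes an unadjusted p under 0.05, against 276 of 10477 in the fit of 2 weeks alone. Its p-values here and between times carry that limit. None of the 31 members tested passed the adjusted threshold, beside 0.0764% of all 15703 genes (12), and none had an unadjusted p under 0.05, beside 9.81% of all genes (1540). The difference, 4 less 2 weeks, was above 0 in 21 of 31 members, or 67.7%, beside 51.5% of all genes. Egln3 and Pfkfb4 are in that count although they had 0 counts in every 2-week library and so no 2-week effect; without them it was 19 of 29 (65.5%). All 6 targets outside glycolysis were above 0 (median 0.44), Bnip3 with 0.51 (SE 0.44, unadjusted p = 0.264) and Bnip3l with 0.38 (SE 0.32, unadjusted p = 0.256) among them; so were 10 of 13 enzymes (median 0.17). None of the 3 transporters was above 0 (median -1.67), while 3 of 5 regulators of flux and 2 of 4 HIF regulators were. In the 2 lists of other pathway genes described below, 10 of 25 glycolysis genes and 20 of 38 HIF genes were above 0. Pfkl came nearest to the threshold at 0.77 (SE 0.38, unadjusted p = 0.0629). For Gbe1 the difference was 0.21 (SE 2.74, unadjusted p = 0.941), an error too wide to say whether its 4-week value was particular to that time.

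The labels 2 and 4 weeks were also compared within each genotype; these comparisons share libraries with those above, and time and batch cannot be told apart in them. In WT none of 31 members passed the adjusted threshold, beside 6.92% of all genes (1086). The direction depended on the scale. Mean CPM was higher at 4 weeks in 26 of the 31 (83.9%), beside 71.2% of all genes, while the TMM-scaled log2 fold change was above 0 in 15 of 31 (48.4%), beside 63.5%, with a median of -0.0061 beside 0.42 over all genes. Aldoa, for example, averaged 579 CPM at 2 and 721 CPM at 4 weeks in WT, with a fitted log2 fold change of -0.0061. In KO 1 of 31 passed, beside 6.33% of all genes (994). There mean CPM was higher at 4 weeks in 25 of 31 (80.6%), beside 71.8%, and the fitted value was above 0 in 21 (67.7%), beside 64.4%, with a median of 0.13 beside 0.49. Without 4-week KO m2 it was above 0 in 13 of 31 (41.9%). The 8 genes of isolation stress, immediate early and heat shock genes that rise when tissue is dissociated, summed to 519 to 1379 CPM in the 2-week libraries and to 7038 to 11752 CPM in the 4-week libraries, with no overlap. All 8 were above 3 counts in every 4-week library, and none was at 0 throughout at 2 weeks. Their part in the differences between times given here and below was not tested.

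The member that passed in KO was Egln3. It and Pfkfb4 passed the filter on low counts through the 4-week libraries alone, so a difference between times was built into their entry, and their values and p-values are given as a description. With 0 counts in all 2-week KO libraries and a mean of 5.57 CPM at 4 weeks, it was at least 58.0-fold higher at 4 weeks than a floor of 3 counts per library, with an adjusted p of 0.0470. The WT difference was at least 25.3-fold, with an adjusted p of 0.0592. The call in KO ended with no filter on low counts (adjusted p = 0.0781), in voom (0.0916), and on leaving out any of 12 of the 17 libraries in turn. Whether the KO and WT differences of Egln3 are unequal could not be fitted with a usable error. Pfkfb4 was also at 0 in all 2-week libraries, and its mean was at least 27.6-fold higher at 4 weeks in WT, with an adjusted p of 0.123. In KO it was at least 24.7-fold higher, with an adjusted p of 0.112. The 4-week values of Pfkfb4 overlapped the zeros of 2 weeks: it was at 3.26 (f), 5.86 (f3), 0 (m1), 0 (m2) and 2.04 (m3) CPM in WT and 4.88 (f2), 4.25 (m1), 0 (m2) and 0.341 (m3) CPM in KO. Egln3 was likewise at 0 in WT m2. Fewer genes were detected overall in the 2-week libraries, and the part of that in both genes was not tested.

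Other genes of the pathways were drawn from 2 lists, 34 of glycolysis and pyruvate metabolism and 42 of the HIF pathway and its targets. At 4 weeks 25 and 38 were tested against genotype, and none was called; 14 of 25 and 22 of 38 were above 0, beside 51.3% of all genes, with medians of 0.040 and 0.042 beside 0.012. At 2 weeks 19 and 28 were tested and none was called. The smallest p belonged to Adm, adrenomedullin, a secreted peptide induced by hypoxia. It was at 63.4 (f), 40.9 (f3), 43.8 (m1), 31.7 (m2) and 55.9 (m3) CPM in WT at 4 weeks. It was at 97.9 (f2), 84.2 (m1), 77.5 (m2) and 73.3 (m3) CPM in KO. Every KO library was above every WT library, as for 0.664% of all genes, and the log2 fold change was 0.88 (SE 0.20, unadjusted p = 0.00180), with an adjusted p of 0.9997. Higd1a, a mitochondrial hypoxia-induced protein, followed at 0.34 (SE 0.15, unadjusted p = 0.0491), with 47.9 to 60.3 CPM in WT and 55.9 to 76.8 CPM in KO. Between times in WT none of 25 glycolysis genes and 3 of 38 HIF pathway genes were called, beside the 6.92% of all genes. Rbx1, a part of the ligase that destroys HIF-alpha, fell by 0.70 on the log2 scale (adjusted p = 0.0244), while Cited2, a HIF-induced inhibitor of HIF, and the lipoprotein receptor Vldlr had the opposite sign (adjusted p = 0.0328 and 0.0378). Cited2 and Vldlr held 0 to 2 counts in the 2-week WT libraries and entered the fit through the 4-week libraries, so their p-values are a description only. In KO none of the 25 and 38 was called between times, beside 6.33% of all genes.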

How the data were processed

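SmartSeq2 libraries, made without molecular identifiers, were deposited as raw counts per gene, 1 table per library; the submitters' processing notes name cutadapt, STAR and HTSeq 0.6.1p1 and the builds GRCm38 and mm10. The annotation and strand setting are not given in the sources used here. Symbols, positions and exon lengths came from GENCODE M21 (GRCm38), which named 49326 of the 49585 identifiers. Groups follow the labels of genotype and time.

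Genes were filtered by filterByExpr, scaled by TMM and tested with edgeR 4.0.16 (R 4.3.3, quasi-likelihood, robust, sex as a term), each time alone; all 17 libraries were fitted together for comparisons across times. P-values were adjusted by Benjamini-Hochberg over all genes of a fit, at 0.05. A count of 3 was the floor, 0.0734 to 0.147 CPM, and covers counting error only. Alternatives were DESeq2 1.42.0, voom in limma 3.58.1, other scalings, filters and terms, a replicate block and leaving out each library. The edgeR script was tested on simulated data.

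The members and lists were chosen with earlier results of these data known. Values in every library are given for members with an unadjusted p under 0.05 in a KO comparison, for the largest log2 fold change of each class and time among members with at least 10 CPM, and for Hif1a, Epas1, Egln1 and Egln3. Of the other pathway genes, those called or with the 2 smallest p-values were eligible to be named. Libraries of a group were compared only to find one deposited more than once, and none was found: over genes with at least 10 counts the lowest chi-square ratio to its degrees of freedom was 44.1, against counting error only. Of the erythroid markers 1 of 10 was not matched.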

Additional observations from a re-analysis of the deposited data

Results flagged for a closer look

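In 46 groups of 4 or 5 libraries, 1 library standing apart from the rest was looked for with Dixon's test, which flags about 1 group in 20 by chance, and 3 were found. Gbe1 in 4-week WT m1 was at 40.7 CPM with the next library at 33.4, a gap of 0.725 of the group's range. Ldhb in 4-week KO m3 was at 18.3 CPM with the next at 11.2, a gap of 0.887 of the range. Pfkfb3 in 2-week WT f4 was at 45.4 CPM with the next at 1.66, a gap of 0.982 of the range.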

How the results depend on the processing

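The 2-week data limit what can be seen: with 4 to 10 members at 0 per library, single libraries set fitted values. The median of the 6 non-glycolytic targets at 2 weeks ran from -0.87 (without KO m2) to 0.18 (without WT f4), that of the HIF regulators from -0.43 to 0.66, and that of the enzymes from -0.10 to 0.15; at 4 weeks these ranges were -0.039 to 0.056, -0.34 to 0.089 and 0.11 to 0.23. Signs turned, with no call, for Egln1 at 2 weeks (-0.031 in voom, -0.56 to 0.66 on leaving out libraries, with -0.085 without WT m2 and -0.040 without KO m3), for Ldhb at 2 weeks (-4.79 to 0.086), for P4ha1 at 2 weeks (0.65 in voom, 0.38 with the replicate block) and for Egln1 at 4 weeks (-0.060 without KO m2, to 0.35); the cause was not tested.

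Members called at 4 weeks against genotype numbered 1 in DESeq2 and 0 in every other setting run. Between times in WT they numbered 2 in DESeq2, 1 without a sex term, and 0 to 1 on leaving out libraries (1 without 4-week WT m2). In KO they numbered 0 with no filter, with at least 10 counts in every library (where Egln3 is not tested) and in voom, and 0 to 1 on leaving out libraries. Over all genes, calls ran from 0 to 149 at 2 weeks (149 in DESeq2, 31 in the joint fit), 0 to 17 at 4 weeks (DESeq2), 0 to 1303 for the difference of effects (DESeq2), 580 to 2938 in WT and 504 to 2873 in KO between times.

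At 2 weeks same-numbered libraries did not pair: the deviations of 4 pairs correlated at -0.020 to 0.046, and 1 of 4 correlated best with its own number. At 4 weeks 3 pairs of males correlated at 0.072 to 0.41, and 2 of 3 correlated best with their own number. There the replicate block gave 651 genes an unadjusted edgeR p under 0.05, against 422 without it. What same-numbered libraries of 4 weeks share was not tested. With the replicate block, fitted for genotype at each time and for the difference of effects, no member was called, and the 12 calls of the difference over all genes became 0. Lengths of the longest or the mean coding transcript were added after seeing the data; they moved the share of Pfkp from 27.2% to 41.8% and 46.6%.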
